A study of Rattus norvegicus with 6 samples.

Results

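Opn4, the gene of melanopsin, was described here together with 9 genes of vasoactive receptors and of relaxation through cyclic GMP (cGMP). The 10 genes were taken by symbol from the 22574 gene symbols of the count table, and they were selected on the counts and fold changes of these same libraries, so that their values are a description and not a test. The study asked how components of extracellular traps act on RASMCs, smooth muscle cells cultured from the aorta of male Sprague-Dawley rats of 8 weeks after the adventitia and endothelium had been taken off. The H3CIT + dsDNA challenged group held 3 libraries of cells given H3CIT (citrullinated histone H3, 0.03 μM) with dsDNA (double-stranded DNA, 300 ng/ml). The control group held 3 libraries of cells given BSA (bovine serum albumin). For its in vitro work in general the study used wells plated from 1 rat as replicates, so animals may not contribute to the spread between libraries. The labels name no transgene or deletion. The length of the exposure was not given in the sources used here. Each library held between 17573905 and 18742395 counts, so that 3 counts correspond to 0.162 to 0.170 CPM. CPM is the count of a gene scaled to a common library size, here after edgeR's TMM correction. CPM values are not divided by gene length, so that they compare libraries and not the levels of genes, and a gene named below as having the most counts of a list may owe that to its length.

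The tone of an artery is set by receptors on its smooth muscle. Receptors for angiotensin, endothelin, noradrenaline and vasopressin act through G proteins and phospholipase C to raise calcium and to activate myosin light chain kinase, which phosphorylates the myosin light chain, while a phosphatase reverses this step. Nitric oxide and the natriuretic peptides act against them. Nitric oxide activates soluble guanylyl cyclase, the natriuretic peptide receptors other than the clearance receptor are themselves guanylyl cyclases, and the cGMP that both make activates the kinase encoded by Prkg1, which lowers calcium and favours the phosphatase. Phosphodiesterases remove cGMP. Melanopsin, best known as the light sensor of retinal ganglion cells, is a G protein-coupled receptor that has also been described in blood vessels.

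The cells carried smooth muscle markers in every library. All 8 markers, Acta2, Myh11, Tagln, Cnn1, Smtn, Lmod1, Des and Myocd, passed the filter on low counts, and their summed level was 5746, 6122 and 6303 CPM after H3CIT+dsDNA and 8953, 9225 and 8484 CPM in the control group, with the most counts from Acta2. In edgeR's quasi-likelihood test, at an adjusted p-value under 0.05, 4 of the 8 were called lower after the challenge and 1 higher. Over all genes tested the shares were 0.262% called lower and 1.94% called higher. The log2 fold changes were -1.57 for Cnn1, -0.69 for Acta2, -0.40 for Tagln and -0.21 for Smtn, and 1.09 for Myocd, which was higher. The call of Smtn was lost under 9 of 15 alternatives, DESeq2 and limma-voom included, with adjusted p-values from 0.0176 to 0.202 over the 15. Endothelial markers summed to 6.40, 6.19 and 6.06 CPM against 7.68, 6.63 and 7.65 CPM, with the most counts from Cdh5 and with Kdr, Cldn5 and Emcn at 1 count or fewer in each library. Macrophage markers summed to 72.6, 72.2 and 74.5 CPM against 75.1, 76.5 and 73.4 CPM, with the most counts from Cd14, while Ptprc, Cd163 and Itgam had at most 1 count in any library. Fibroblast markers summed to 17.7, 16.8 and 14.2 CPM against 15.7, 13.8 and 16.3 CPM, with the most counts from Col14a1. Of these 22 markers 11 were tested, and 0 were called by edgeR, DESeq2 or limma-voom or had an unadjusted p-value under 0.05. Of all genes each tool tested, edgeR called 2.20%, DESeq2 2.07% and limma-voom 2.03%. At an unadjusted p-value under 0.05 in edgeR, 8.64% of all genes were higher and 5.30% lower. Few calls would therefore fall among 11 genes at the share of all genes. The part of other cell types in the values below was not tested.

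Of the 10 genes, 6 had enough counts to enter the fit (Opn4, Ednra, Adra1d, Avpr1a, Ptgir and Prkg1) and 4 did not (Agtr1a, Ednrb, Npr3 and Gucy1a3). At an adjusted p-value under 0.05 the fit called 1 of the 6, Opn4, lower after H3CIT+dsDNA, where it called 2.20% of all 12591 genes tested, 1.94% higher and 0.262% lower. In 1 of the 6, again Opn4, the challenged libraries were all beyond the same end of the control range, which held for 19.1% of all genes tested. The median log2 fold change was 0.00 over the 6 genes and 0.00 over all genes tested.

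Opn4 had 67, 87 and 78 counts in the H3CIT+dsDNA libraries and 123, 333 and 345 in the control libraries. These are 3.69, 4.94 and 4.30 CPM against 6.89, 17.9 and 18.6 CPM. All 3 challenged libraries were below all 3 controls, but control replicate 1 stood apart from the other controls and close to the challenged libraries. The means were 4.31 ± 0.621 CPM and 14.5 ± 6.57 CPM (SD, n = 3 each), and edgeR fitted a log2 fold change of -1.75 (SE 0.30, 95% interval -2.40 to -1.10). Control replicate 1 alone was 1.60 times the mean of the challenged libraries, and the other controls were 4.24 times that mean. Leaving out single libraries gave log2 fold changes from -2.09, without control replicate 1, to -1.53, without control replicate 3. Opn4 was past the threshold under 12 of 15 alternatives and not with limma-voom, with robust dispersion estimates or without H3CIT+dsDNA replicate 1. In bulk RNA, fewer cells that express a gene and less RNA in each cell cannot be told apart. Opn4 overlaps no other gene in RefSeq's annotation of the GRCr8 assembly. The reads were aligned to another assembly, Rnor6.0, in which overlaps were not examined.

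The bases upstream of the start of Opn4 are shown because Opn4 had the largest fold change of the 6 tested genes. The sequence is RefSeq's for GRCr8, chr16:9935811-9936060, minus strand, 5′ to 3′, and ends at the base before the annotated start. It was searched on both strands for a TATA box (TATAAA), an AP-1 site (TGANTCA), a cAMP response element core (TGACG), a STAT element (TTCNNNGAA) and the CArG box of serum response factor, any of which would stand in capitals. None of these motifs occurred in this window.
Opn4: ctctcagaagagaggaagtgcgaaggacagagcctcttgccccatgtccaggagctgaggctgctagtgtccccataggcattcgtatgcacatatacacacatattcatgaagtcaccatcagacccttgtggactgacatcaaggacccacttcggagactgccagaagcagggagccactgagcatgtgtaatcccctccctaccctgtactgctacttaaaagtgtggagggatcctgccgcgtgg

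**Figure D1:**
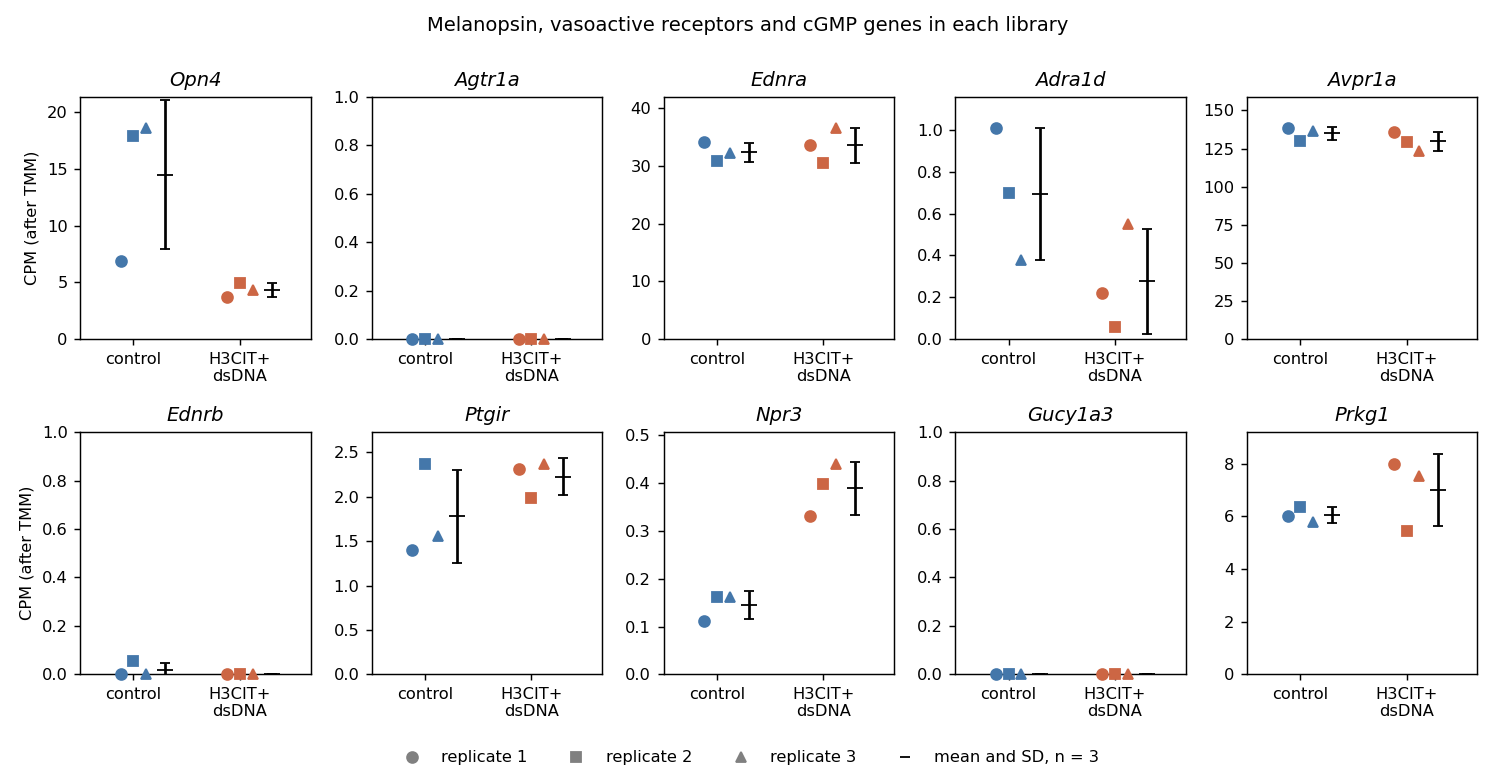
Level in CPM after TMM scaling (y axes from 0, a scale of its own for each gene) of the 10 chosen genes in the control and H3CIT+dsDNA libraries, with 1 symbol per replicate and the mean and SD (n = 3) as black bars. Opn4 lay between 3.69 and 4.94 CPM after H3CIT+dsDNA and at 6.89, 17.9 and 18.6 CPM in controls, Avpr1a and Ednra overlapped between groups, and Agtr1a and Gucy1a3 were at 0 throughout.

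By the rule set for the genes most like Opn4, the 5 tested genes with the highest Pearson correlation of log2 CPM over the 6 libraries were Prosc (r = 0.9937), Kifc1 (0.9909), Slco3a1 (0.9892), Lsm4 (0.9885) and Rangrf (0.9881). Each had control replicate 1 near the challenged libraries and the other controls higher, as Prosc with 442, 442 and 456 counts after H3CIT+dsDNA and 459, 537 and 539 in controls. The differences were small beside that of Opn4. The values share libraries and depth, and are given as a description. Opn3, encephalopsin, the only other opsin that entered the fit, had 5.01 ± 0.560 CPM after H3CIT+dsDNA and 4.95 ± 0.323 CPM in controls (SD, n = 3 each; log2 fold change 0.02, 95% interval -0.31 to 0.35). Of the 6 remaining opsins listed, 5 had no count in any library.

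Among the constrictor receptors, Avpr1a, the vascular vasopressin receptor, had 2469, 2281 and 2245 counts after H3CIT+dsDNA and 2469, 2412 and 2533 in controls. The groups overlapped at 130 ± 6.25 and 135 ± 4.39 CPM (SD, n = 3 each), and the log2 fold change was -0.06 with a 95% interval of -0.15 to 0.04. Ednra, the endothelin receptor of smooth muscle that mediates constriction, had 611, 537 and 663 counts against 608, 572 and 598. These groups overlapped as well, at 33.6 ± 3.03 and 32.4 ± 1.63 CPM (SD, n = 3 each; log2 fold change 0.05, 95% interval -0.11 to 0.21). As a ratio of H3CIT+dsDNA to control, the intervals ran from 0.899 to 1.03 for Avpr1a and from 0.929 to 1.16 for Ednra. Ednra also overlaps a long non-coding RNA gene in GRCr8.

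Adra1d, an alpha-1 adrenergic receptor, was measured near the lower limit. It had 4, 1 and 10 counts after H3CIT+dsDNA against 18, 13 and 7 in controls, and the groups overlapped through H3CIT+dsDNA replicate 3. Its log2 fold change of -1.32 had an unadjusted 95% interval of -2.62 to -0.02, and leaving out 1 library moved it between -2.31 and -0.85. Adra1d was not called (edgeR adjusted p = 0.35), and it passed the threshold under 0 of 14 alternatives. Agtr1a, the type 1a angiotensin receptor, was listed at 0 in all 6 libraries, which allows up to 3 counts in each and covers counting error only. Its near-identical paralog Agtr1b had 4, 4 and 5 counts after H3CIT+dsDNA against 19, 4 and 4 in controls, the 19 again in control replicate 1. Reads shared by the paralogs can be lost or assigned to either of them, so their levels are uncertain.

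Among the receptors and the cyclase subunit tied to relaxation, Ptgir, the prostacyclin receptor, had 42, 35 and 43 counts after H3CIT+dsDNA and 25, 44 and 29 in controls. Control replicate 2 lay above all challenged libraries, and the log2 fold change of 0.32 had a 95% interval of -0.23 to 0.87. Ednrb, the endothelin receptor known mostly from endothelium, had 1 count in all libraries together. Gucy1a3, an alpha subunit of soluble guanylyl cyclase, is listed under its older symbol and was at 0 in every library, and Gucy1a2, the other alpha subunit listed, was at 0 as well. Gucy1b3, the beta subunit that pairs with them, had 28, 44 and 41 counts after H3CIT+dsDNA and 42, 37 and 39 in controls (log2 fold change -0.03, 95% interval -0.55 to 0.48). Counts were thus listed for the beta subunit and not for either alpha subunit. As for Agtr1a, a listed 0 allows up to 3 counts in each library and covers counting error only. Gucy1a3 overlaps a pseudogene in GRCr8, so its reads may be lost or assigned elsewhere, and its level is uncertain.

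Prkg1, the cGMP-dependent kinase, had 145, 96 and 137 counts after H3CIT+dsDNA and 107, 118 and 107 in controls. H3CIT+dsDNA replicate 2 was below all controls and the other challenged libraries were above them. Prkg1 was at 7.996, 5.45 and 7.55 CPM against 5.99, 6.36 and 5.76 CPM (log2 fold change 0.21, 95% interval -0.12 to 0.55). Its long gene body spans Cstf2t and several non-coding genes in GRCr8, which may share reads with it. Npr3, the natriuretic peptide receptor that clears the peptides and has no cyclase domain, had 6, 7 and 8 counts after H3CIT+dsDNA and 2, 3 and 3 in controls. The groups did not overlap, but they summed to 21 and 8 counts, a ratio of 2.68 with an exact interval of 1.14 to 6.99 for counting error alone, and the gene was under the filter.

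The rest of the pathway was read from lists of 156 other genes, chosen by function with earlier results of the libraries known. Of these, 86 were tested. edgeR's quasi-likelihood test called 7 of the 86 at an adjusted p-value under 0.05, 8.14%, beside 2.20% of all genes tested. Of the 7, Pde1a entered the fit through its H3CIT+dsDNA counts alone, and 6 were called with at least 10 counts required in every library. All 7 were higher after H3CIT+dsDNA and 0 were lower. At an unadjusted p-value under 0.05, 13 of the 86 were higher and 1 was lower, where 8.64% of all genes tested were higher and 5.30% lower. DESeq2 and limma-voom each called 6 of these genes, none of them lower, and 2.07% and 2.03% of all genes they tested. Their median log2 fold change was 0.02, against 0.00 over all genes tested, and of the 79 that were not called 75 had a 95% interval within a log2 fold change of 1 in either direction. The 7 genes were Npr1, Nppc, Edn1, Arrb1, Pde1a, Ppp1r12a and Rock2. In GRCr8, Npr1 and Pde1a each overlap a long non-coding RNA gene, and Arrb1 overlaps a microRNA gene and a pseudogene, so a part of their counts may be shared.

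**Figure D2:**
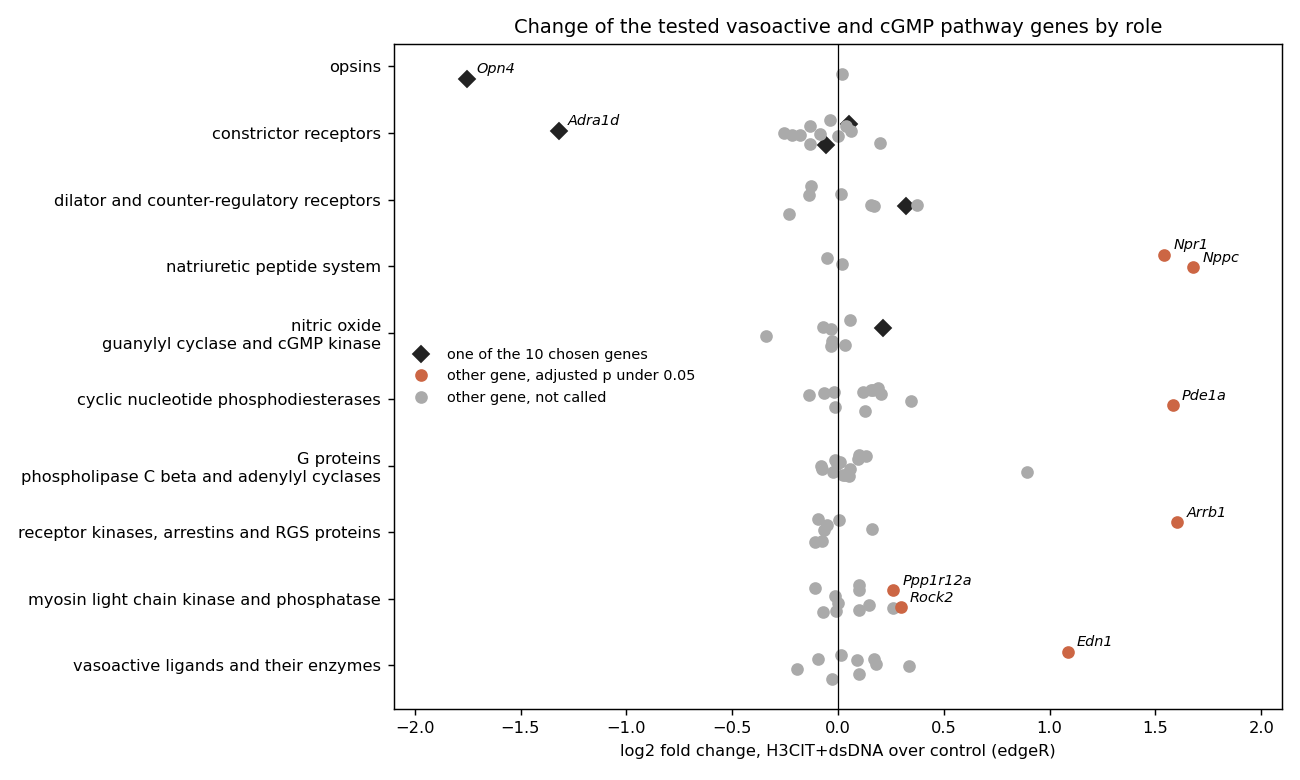
Log2 fold change, H3CIT+dsDNA over control (x axis, edgeR), of every tested gene of the pathway lists, in rows by role with a random vertical offset. Most genes lie near 0, the 7 called genes outside the 10 chosen ones (orange) lie to the right, and Opn4 (-1.75) and Adra1d (-1.32, not called) lie farthest to the left.

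In the natriuretic peptide system 2 of the 4 tested genes other than Npr3 rose, where 1.94% of all genes tested were called higher. Npr1, the cyclase receptor for the atrial and B-type peptides, had 333, 330 and 343 counts after H3CIT+dsDNA and 121, 110 and 121 in controls. The groups were far apart, at 18.7 ± 0.271 and 6.41 ± 0.436 CPM (SD, n = 3 each), or 1.54 in log2 fold change (SE 0.09, edgeR adjusted p = 1.08e-07). Nppc, which encodes the C-type peptide, had 67, 66 and 65 counts against 22, 21 and 20, or 1.68 in log2 fold change (SE 0.21, edgeR adjusted p = 0.000315). Npr2, the cyclase receptor for that peptide, was at 57.1 ± 0.873 CPM after H3CIT+dsDNA and 56.3 ± 0.582 CPM in controls (SD, n = 3 each; log2 fold change 0.02, 95% interval -0.07 to 0.11). Furin, a protease that processes precursors of the peptides, had a log2 fold change of -0.05 (95% interval -0.13 to 0.02). The counts of Nppc were runs of 3 consecutive whole numbers in both groups. Among tested genes with a group mean of at least 20 counts, such runs occurred in 0.364% of genes after H3CIT+dsDNA and 0.373% in controls, and among the other pathway genes in 2 of 82 and 2 of 80, with P2ry6 and Gna12 beside Nppc. The cause was not tested.

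Of the vasoactive ligands and their enzymes 1 of 10 tested rose, where 1.94% of all genes tested were called higher. Edn1, the precursor of endothelin-1, had 761, 727 and 771 counts after H3CIT+dsDNA and 430, 324 and 330 in controls, with control replicate 1 the highest control. The levels were 41.9 ± 0.612 and 19.8 ± 3.74 CPM (SD, n = 3 each), or 1.08 in log2 fold change (SE 0.10, edgeR adjusted p = 1.57e-05). The receptors that bind its product are Ednra and Ednrb, described above. Ece1, the converting enzyme that releases endothelin-1, had a log2 fold change of -0.10 (95% interval -0.19 to 0.00), and Ptgs1, cyclooxygenase 1, one of -0.03 (95% interval -0.11 to 0.05).

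The upstream bases of Npr1, Nppc and Edn1 are given next because these 3 genes of receptor and ligand rose by at least 1.08 on the log2 scale. They are RefSeq's for GRCr8, all on the minus strand and 5′ to 3′, at chr2:178247089-178247338, chr9:94772187-94772436 and chr17:22666688-22666937. The same motifs were searched, and capitals mark the TATA box, which began 48 bases before the annotated start in Nppc and 110 bases before it in Edn1. Of 33469 RefSeq promoter windows of 250 bases, 12.9% held TATAAA, 6.34% TGANTCA, 18.2% TGACG, 7.67% TTCNNNGAA and 1.5% a CArG box. No other of these motifs occurred in the 3 windows, and a match is a run of letters and not a shown binding site.
Npr1: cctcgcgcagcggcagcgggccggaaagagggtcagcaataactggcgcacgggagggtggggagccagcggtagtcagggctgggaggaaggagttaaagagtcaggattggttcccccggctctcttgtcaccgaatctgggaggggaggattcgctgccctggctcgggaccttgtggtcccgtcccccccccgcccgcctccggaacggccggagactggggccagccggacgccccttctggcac
Nppc: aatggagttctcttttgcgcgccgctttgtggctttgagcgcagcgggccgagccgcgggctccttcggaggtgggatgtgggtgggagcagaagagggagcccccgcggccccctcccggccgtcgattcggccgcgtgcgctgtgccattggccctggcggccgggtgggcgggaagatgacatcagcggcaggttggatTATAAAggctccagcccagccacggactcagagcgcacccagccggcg
Edn1: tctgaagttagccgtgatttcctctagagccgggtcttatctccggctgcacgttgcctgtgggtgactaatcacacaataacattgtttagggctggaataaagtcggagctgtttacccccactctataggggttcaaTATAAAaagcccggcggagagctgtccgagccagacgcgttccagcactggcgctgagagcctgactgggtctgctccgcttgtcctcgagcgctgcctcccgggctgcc

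**Figure D3:**
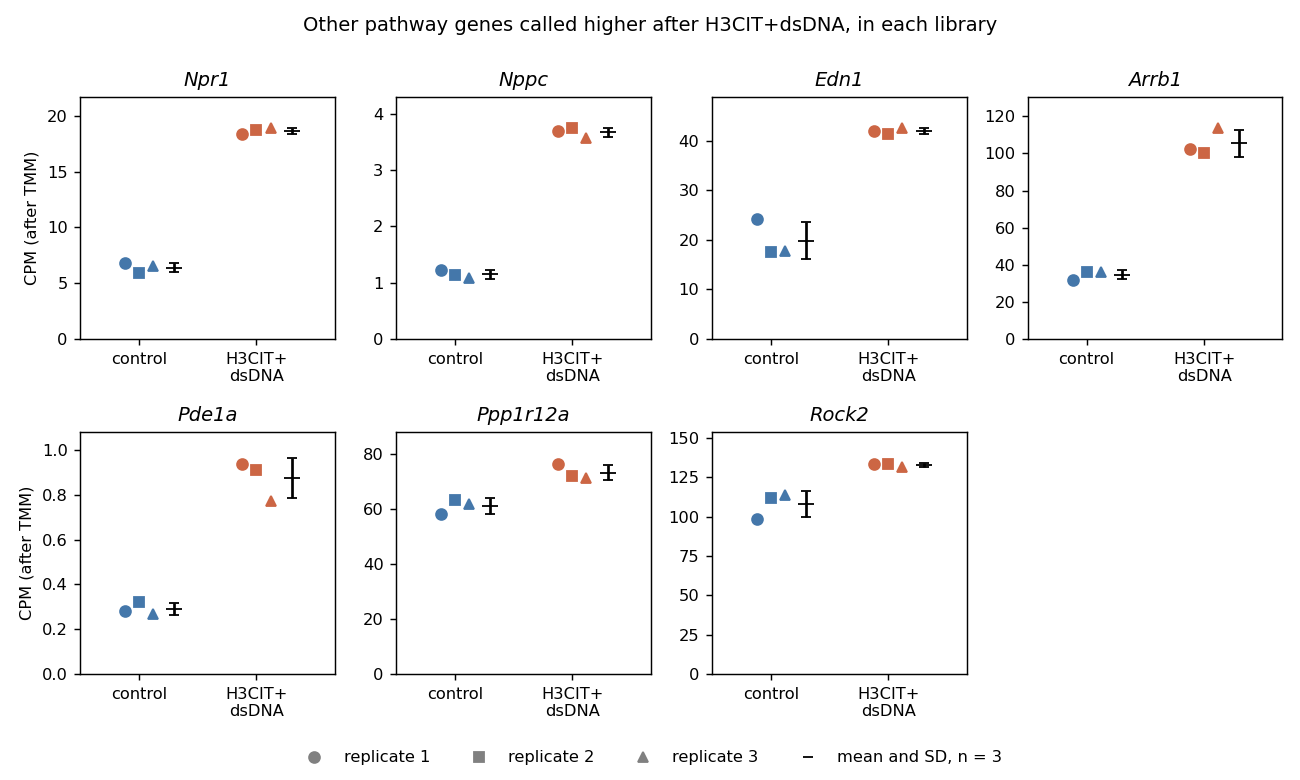
Level in CPM after TMM scaling (y axes from 0, a scale of its own for each gene) of the 7 called pathway genes in each library, with 1 symbol per replicate and the mean and SD (n = 3) as black bars. The 7 were picked by their calls in these same libraries, and their groups do not overlap. The groups do not overlap in 25.6% of the 86 other pathway genes tested and in 19.1% of all genes tested. Npr1, for example, lies at 18.4 to 18.9 CPM against 5.93 to 6.78 CPM.

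Among receptor kinases, arrestins and RGS proteins 1 of 8 tested rose, beside 1.94% of all genes tested that were called higher. Arrb1, beta-arrestin 1, which uncouples phosphorylated receptors from G proteins, had 1856, 1767 and 2062 counts after H3CIT+dsDNA and 567, 666 and 675 in controls. This is 1.60 in log2 fold change (SE 0.06, edgeR adjusted p = 2.26e-09), at 105 ± 7.16 and 34.7 ± 2.53 CPM (SD, n = 3 each). Its relative Arrb2 had a log2 fold change of -0.11 (95% interval -0.36 to 0.14). Grk2, a kinase that phosphorylates activated receptors, had one of -0.05 (95% interval -0.17 to 0.07), and Grk6 one of -0.08 (95% interval -0.17 to 0.02).

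Of the phosphodiesterases edgeR called 1 of 12 tested, beside 2.20% of all genes tested. DESeq2 and limma-voom each called 0 of this list, beside 2.07% and 2.03% of all genes they tested. Pde1a, a calcium-dependent enzyme that breaks down cGMP and cAMP, had 17, 16 and 14 counts after H3CIT+dsDNA and 5, 6 and 5 in controls, or 1.58 in log2 fold change (SE 0.37, edgeR adjusted p = 0.0453). Pde1a passed the filter on low counts through its H3CIT+dsDNA libraries alone, so that its entry into the fit depended on the difference, and it was not tested with a filter of at least 10 counts in every library. Its adjusted p ran from 0.0387 to 0.291 over 14 alternatives, and the call was lost in 11 of them, including DESeq2, limma-voom and each fit that left out 1 library. Pde5a, the cGMP-specific enzyme that sildenafil inhibits, had 65, 61 and 63 counts against 46, 44 and 62, with a log2 fold change of 0.34 (95% interval -0.08 to 0.77). Pde2a (log2 fold change -0.07, 95% interval -0.15 to 0.02) and Pde1b (-0.02, 95% interval -0.14 to 0.11) were not called.

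At the level of the light chain, 2 of 12 tested genes rose, by small amounts, where 1.94% of all genes tested were called higher. Ppp1r12a, the subunit that targets the phosphatase to myosin, was at 73.2 ± 2.81 CPM after H3CIT+dsDNA and 61.1 ± 2.74 CPM in controls (SD, n = 3 each), or 0.26 in log2 fold change (SE 0.05, edgeR adjusted p = 0.0106). Over the alternatives its adjusted p ran from 0.00204 to 0.0858, and it was not called without H3CIT+dsDNA replicate 1 or without control replicate 1. Rock2, a kinase that phosphorylates this subunit, was at 133 ± 1.22 and 108 ± 8.14 CPM (SD, n = 3 each), or 0.30 in log2 fold change (SE 0.05, edgeR adjusted p = 0.00613). Its close relative Rock1 was at 43.2 ± 2.39 and 36.1 ± 2.43 CPM (SD, n = 3 each; log2 fold change 0.26, edgeR adjusted p = 0.0678). It was not called, and its adjusted p ran from 0.0275 to 0.297 over the alternatives. Mylk, the light chain kinase (log2 fold change -0.01, 95% interval -0.10 to 0.08), was among the 10 genes not called.

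Of 53 other opsins and constrictor, dilator and counter-regulatory receptors, 19 had enough counts to be tested, and edgeR's quasi-likelihood test called 0 of them, as did DESeq2 and limma-voom. At an unadjusted p-value under 0.05 the count was 0 as well. Of all genes each tool tested, edgeR called 2.20%, DESeq2 2.07% and limma-voom 2.03%. At an unadjusted p-value under 0.05 in edgeR, 8.64% of all genes were higher and 5.30% lower. Few calls would therefore fall among 19 genes at the share of all genes. The thrombin receptor F2r had 176 ± 2.97 CPM after H3CIT+dsDNA and 171 ± 2.91 CPM in controls (SD, n = 3 each; log2 fold change 0.04, 95% interval -0.04 to 0.12), and P2rx1, an ATP-gated channel, had a log2 fold change of 0.00 (95% interval -0.13 to 0.13). In the list of dilator and counter-regulatory receptors, the bradykinin receptor Bdkrb1 had one of 0.16 (95% interval -0.14 to 0.45). Adra2b, an alpha-2 adrenergic receptor that stands in the same list but is known to mediate constriction on vascular smooth muscle, had one of -0.14 (95% interval -0.37 to 0.10). The remaining 34 were at low counts or at 0, and were not tested.

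Downstream of the receptors, edgeR called 0 of 14 tested genes of G proteins, phospholipase C beta and adenylyl cyclases, with 2 higher at an unadjusted p-value under 0.05 and none called by DESeq2 or limma-voom. Gnas, the stimulatory alpha subunit, had a log2 fold change of -0.01 (95% interval -0.10 to 0.07) and Gnai2, an inhibitory one, of -0.02 (95% interval -0.10 to 0.05). In the nitric oxide and cGMP kinase list 0 of 7 tested genes were called by edgeR, DESeq2 or limma-voom, and none had an unadjusted p-value under 0.05. With 2.20% of all genes called, a count of 0 among 14 or 7 genes is near the share of all genes. DESeq2 called 2.07% and limma-voom 2.03% of all genes they tested. At an unadjusted p-value under 0.05 in edgeR, 8.64% of all genes tested were higher and 5.30% lower. Mrvi1, a substrate of the cGMP kinase at the calcium store, was at 199 ± 5.15 and 191 ± 10.4 CPM (SD, n = 3 each; log2 fold change 0.06, 95% interval -0.04 to 0.15), and Vasp, another substrate, had a log2 fold change of -0.03 (95% interval -0.12 to 0.07). Cyb5r3, a reductase that acts on the haem of soluble guanylyl cyclase, had one of -0.03 (95% interval -0.11 to 0.05). Nos3, the endothelial nitric oxide synthase, had 936, 935 and 908 counts after H3CIT+dsDNA and 928, 1033 and 1014 in controls. Of the endothelial markers, Cdh5 had 73 to 105 counts in these libraries, Pecam1 9 to 18, Vwf 7 to 15, Tek 3 to 12 and Erg 1 to 4, and Kdr, Cldn5 and Emcn had at most 1, and their part in the level of Nos3 was not tested. Nos3 overlaps Atg9b in GRCr8, and the strand setting of the counting was not given in the sources used here, so reads of the pair may be mixed.

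**Figure D4:**
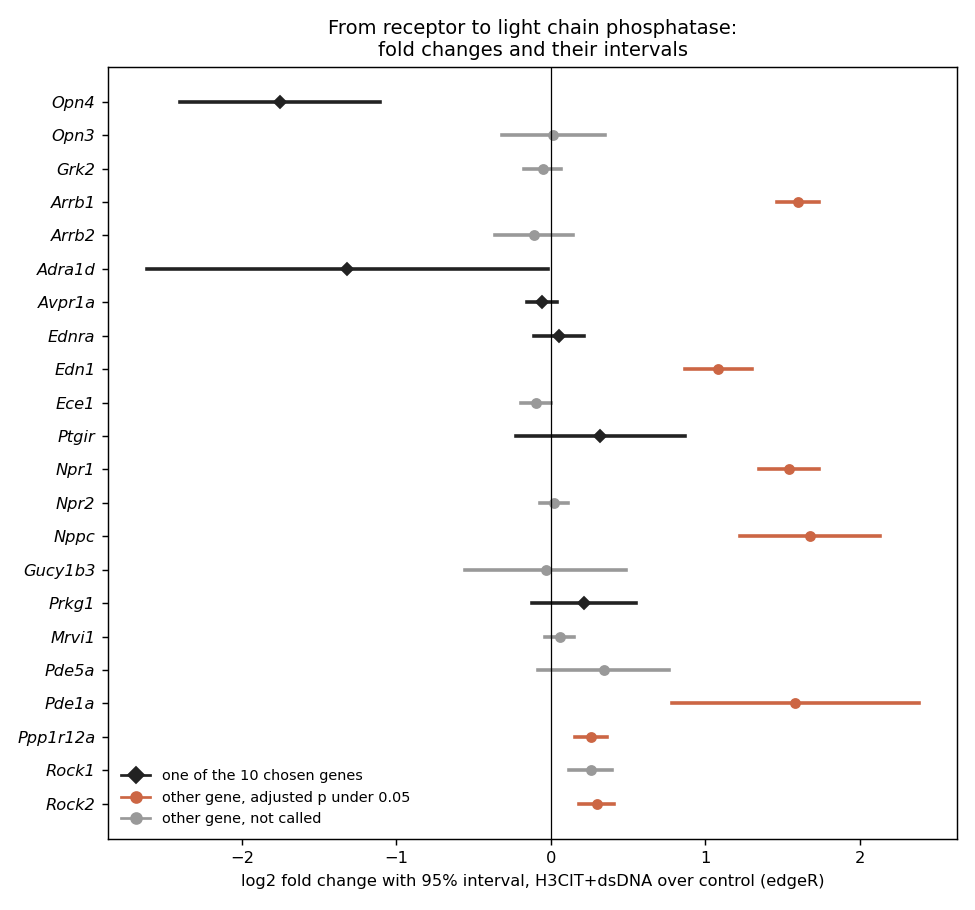
Log2 fold change, H3CIT+dsDNA over control (x axis, edgeR), with its 95% interval for genes along the path from receptor to myosin light chain phosphatase. Diamonds mark the chosen genes that were tested, orange circles other called genes and grey circles other genes not called. The intervals of Avpr1a, Ednra and Npr2 are narrow and include 0, those of Opn4 and Adra1d are wide, and those of Npr1, Nppc, Edn1 and Arrb1 lie above 0, the one of Edn1 from 0.87 to 1.30.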

How the data were processed

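Polyadenylated RNA of 6 cultures was sequenced from stranded libraries. The authors aligned the reads to Rnor6.0 (TopHat2 2.1.1 in the submitters' processing notes, which also list Cufflinks 2.2.1 and Cuffdiff), and the deposited values are HTSeq read counts, whole numbers with no normalization, for 22574 gene symbols. The strand setting of the counting is not given in the sources used here, so overlapping, antisense and near-identical genes can share reads. Titles gave the groups, the study's methods gave the doses and its reporting summary the age. Libraries held 17573905 to 18742395 counts.

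After filterByExpr and TMM, 12591 genes were tested by quasi-likelihood in edgeR 4.0.16 (R 4.3.3), two-sided, and p-values were adjusted by Benjamini and Hochberg's method over those genes, with calls at 0.05. SE is the unshrunken coefficient over the root of F, and 95% intervals are unadjusted. Replicate libraries differed by more than counting noise (chi-square per gene at least 3.27). Intervals on ratios of summed counts cover counting error only.

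The members and lists were chosen with earlier results of these data known. The naming rule took the 10 genes, called pathway genes, the 2 uncalled genes of each list with the highest CPM, direct partners, markers and the 5 genes most like Opn4. Arrb2, Rock1, P2ry6, Gna12, Nos3, Atg9b and the low-count genes of the closing section were named after their values were seen. Values of some genes that the rule covers are not reported here. Current and older symbols of 1 gene were counted once. Other settings tried were DESeq2 1.42.0 and its size factors, scaling by upper quartile or by library size, limma-voom (limma 3.58.1), no filter, a filter of at least 10 counts in every library, robust dispersions, a block on replicate number, and fits lacking 1 library each. The fits were first tested on simulated counts. RefSeq's GRCr8 tables held 17139 of the symbols and upstream sequences for all 10 genes.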

Additional observations from a re-analysis of the deposited data

How the results depend on the processing

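The number of other pathway genes called, 7, was between 5 and 8 under the 15 alternatives, and all of the calls were higher after H3CIT+dsDNA. Npr1, Nppc, Edn1, Arrb1 and Rock2 were called under each of the 15. The number of all genes called, 277, ran from 164, without H3CIT+dsDNA replicate 1, to 357, without control replicate 3, in fits of 5 libraries each, and was 184 without control replicate 1. It was 212 to 376 under the other alternatives, the highest with robust dispersions, then 364 with no filter and 340 with library size alone. The cause of these differences was not tested. Of 628 values of 42 named genes under alternatives, 600 stayed on the same side of the threshold, 25 fell short of it, 3 newly passed it and 0 called values changed sign. The 25 belong to Opn4 (3), Pde1a (11), Ppp1r12a (2) and Smtn (9), and the 3 to Rock1, called with robust dispersions, with no filter and with library size alone. Why these calls moved was not tested. Other scalings moved the median log2 fold change of all genes from 0.00 to between -0.02 and 0.02. Blocking on the replicate number gave 212 genes, with 6 other pathway genes (Pde1a was lost). The deviations of same-numbered libraries from their group means correlated at -0.0458, 0.00452 and 0.0355 across genes. The numbers thus showed no pairing over the genes as a whole, and a pairing confined to some genes was not tested. The 70 other pathway genes and 4 chosen genes under the filter were not tested, and 23 and 2 of them were at 0 in every library.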

Other observations

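Some genes of the pathway lists under the filter on low counts had unequal summed counts in the 2 groups. The groups overlapped in Prkg2 and in Nppb. The genes were picked after their values were seen, so that the exact intervals below are a description and not a test. Those intervals leave out the spread between replicates. Prkg2, the second cGMP-dependent kinase gene, had 8, 3 and 6 counts after H3CIT+dsDNA and 1, 1 and 4 in controls, a ratio of summed counts of 2.89 with an exact interval of 1.09 to 8.95 for counting error alone. Nppb, the B-type natriuretic peptide, had 6, 15 and 16 counts against 8, 7 and 8, a ratio of 1.64 with an interval of 0.949 to 2.89. The interval of Nppb includes a ratio of 1. The urotensin receptor Uts2r had 4, 6 and 4 counts against 1, 1 and 2, and Plcb1, a phospholipase C beta gene, had 3, 1 and 2 against 8, 7 and 5. Plcb2, another gene of that family, was tested and had 24, 21 and 28 counts against 14, 7 and 19 (log2 fold change 0.89, 95% interval 0.14 to 1.65), and it was not called.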
